A study of Mus musculus with 6 samples.

Results

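The posterior HoxA and HoxD genes are the members at the 5′ end of the HoxA and HoxD clusters, and 9 of them were examined: Hoxa9, Hoxa10, Hoxa11 and Hoxa13 on chromosome 6, and Hoxd9, Hoxd10, Hoxd11, Hoxd12 and Hoxd13 on chromosome 2. They were chosen by name, with earlier results of these data known. Their positions were taken from the GENCODE M1 annotation of the mouse genome build mm9, in which they are 9 of 22380 protein-coding genes. For each gene every peak of LncRNA-HIT within 100 kb was collected from a limb list and a glial list. LncRNA-HIT, which the sample labels call Hotchon, is a long noncoding RNA transcribed between Hoxa11 and Hoxa13. The comparison therefore sets the cluster that holds the RNA's own locus against the related cluster on another chromosome.

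The peaks come from ChIRP-seq, in which biotin-tagged DNA probes complementary to an RNA recover the chromatin bound to it. Chromatin of Swiss Webster limb buds at embryonic day 11 was hybridized in 1 library with the odd probes and in another with the even probes. Chromatin of a mouse glial cell line, said not to express LncRNA-HIT, was treated with the same 2 probe sets as the control, and each tissue had 1 input library, giving 6 libraries. The labels of the glial libraries also give the strain Swiss Webster and embryonic whole brain as the source, their stage is stated in conflicting ways, and neither stage was used. The limb chromatin came from the distal part of many limb buds pooled for each assay, so that limb cell types were not separated. The glial cells are 1 cultured line and no primary tissue, and as only peak positions were used, the identity of neither chromatin source could be checked by marker genes. Both probe sets were merged before peaks were called, so each tissue has a single list and no replicates. No difference between the lists could be tested, and how many reads support a peak is unknown.

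Hox proteins are homeodomain transcription factors whose genes lie in clusters, and in the limb the order of the genes along a cluster matches the order in which they are used from shoulder to digit tip. Groups 9 and 10 act with their paralogs in the upper limb, group 11 in the forearm, and groups 12 and 13 in the wrist and digits. Expression of the posterior HoxD genes in the limb is driven by enhancers spread over gene deserts on both sides of that cluster, while the posterior HoxA genes share their end of the cluster with noncoding RNAs such as Hottip.

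All 4 posterior HoxA genes had a limb peak within 100 kb and none of the 5 posterior HoxD genes did. Thus 4 of 9 genes had a limb peak within the limit, against 24% of all protein-coding genes. In the glial list 9 of 9 genes had a peak within the limit, against 21% of all protein-coding genes. These counts rest on few peaks. The 4 HoxA genes shared a single limb peak and a single glial peak, which lay at the same place, and the 5 HoxD genes shared a single glial peak. The genes of a cluster are neighbours and were not independent, so the counts show 1 HoxA site and 1 HoxD site rather than 9 separate ones.

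The strength of a peak is given here as −log10(p), the negative logarithm of the p-value that the peak caller assigned to it, and it measures significance rather than height. The 2880 limb peaks ranged from 5.17 to 310 around a median of 34.9, and the 2919 glial peaks from 5.82 to 317 around a median of 32.5. Values were not put on a common scale between the lists, and they are set side by side as each list gives them.

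The HoxA site lay at chr6:52206123-52207602 in the limb list and at chr6:52206196-52207203 in the glial list, between Hoxa11 and Hoxa13, and no annotated gene overlapped either peak. The HoxD site lay at chr2:74516672-74517053, in the glial list only, in the space between Hoxd12 and Hoxd11. The limb peak closest to the HoxD genes lay far outside the limit at chr2:74876721-74877153, beyond Mtx2. A stretch of 300 bases from each of these places is printed because the results turn on them. All are plus-strand sequences of mm9, 5′ to 3′. In the HoxA stretch, which begins with the first base after the glial peak and lies wholly inside the limb peak, capitals mark the sites of the 7 ChIRP probes that the limb peak covered and the glial peak did not. In the HoxD stretch capitals mark the site most like any probe in that peak, which read on the minus strand shares 14 of 20 bases with probe 12. In the stretch beyond Mtx2 capitals mark the site most like any probe there, with 16 of 20 bases shared with probe 7.
HoxA, chr6:52207204-52207503, plus strand: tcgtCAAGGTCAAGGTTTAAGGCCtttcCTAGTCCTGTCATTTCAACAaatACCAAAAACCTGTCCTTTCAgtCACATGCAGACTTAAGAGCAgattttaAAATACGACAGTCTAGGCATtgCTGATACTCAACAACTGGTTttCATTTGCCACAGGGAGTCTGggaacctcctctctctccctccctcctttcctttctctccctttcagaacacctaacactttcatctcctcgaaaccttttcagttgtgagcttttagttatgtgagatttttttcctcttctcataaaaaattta
HoxD, chr2:74516713-74517012, plus strand: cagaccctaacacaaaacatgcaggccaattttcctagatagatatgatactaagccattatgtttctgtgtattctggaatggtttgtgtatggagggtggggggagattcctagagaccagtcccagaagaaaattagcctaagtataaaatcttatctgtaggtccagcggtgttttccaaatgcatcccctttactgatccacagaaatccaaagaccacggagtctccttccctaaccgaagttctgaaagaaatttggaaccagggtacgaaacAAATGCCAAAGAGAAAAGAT
beyond Mtx2, chr2:74876788-74877087, plus strand: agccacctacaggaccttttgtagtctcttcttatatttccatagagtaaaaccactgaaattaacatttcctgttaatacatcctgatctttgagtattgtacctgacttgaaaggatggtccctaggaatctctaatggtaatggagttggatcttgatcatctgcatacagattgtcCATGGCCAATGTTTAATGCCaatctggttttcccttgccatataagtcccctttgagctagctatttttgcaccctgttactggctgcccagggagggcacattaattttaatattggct
probe 12, even set, chr6:52206866-52206885, plus strand: ATCTTCACTCGTCAGCAATT
probe 7, odd set, chr6:52207208-52207227, plus strand: CAAGGTCAAGGTTTAAGGCC

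**Figure D1:**
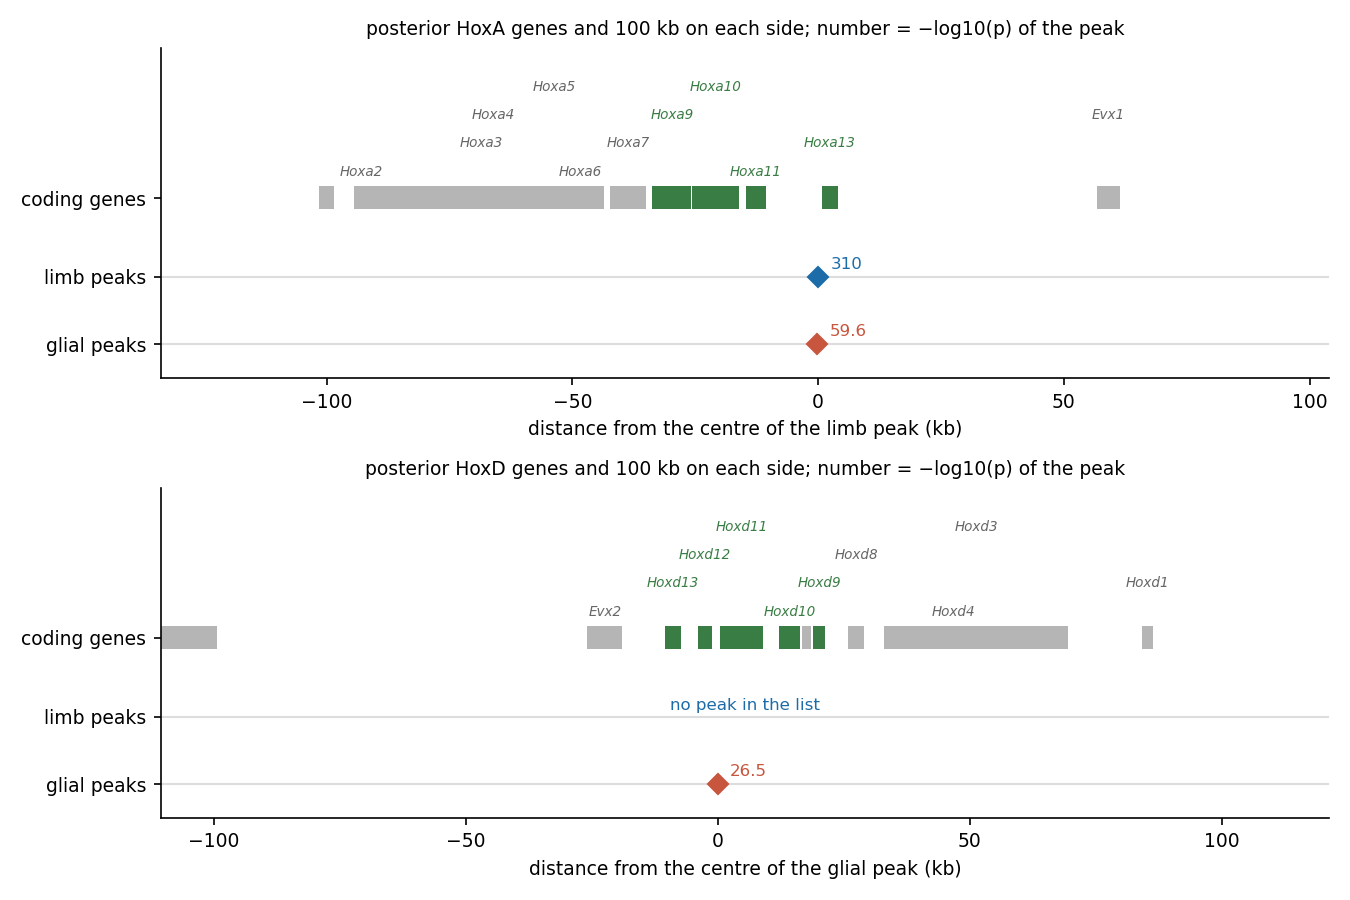
Maps of the posterior HoxA genes (top) and posterior HoxD genes (bottom) with 100 kb on each side. The x axis gives the distance in kb from the centre of the HoxA limb peak or the HoxD glial peak, green bars are the 9 genes, grey bars other coding genes, and diamonds are peaks with their −log10(p). The HoxA map holds 1 limb peak (310) and 1 glial peak (59.6) at the same place, and the HoxD map holds 1 glial peak (26.5) and no limb peak.

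Hoxa13, the gene for the group 13 protein that shapes the digits and wrist, lay closest to the HoxA site. The gene spans chr6:52207693-52210874 on the minus strand, and the limb peak ended 90 bp beyond its downstream end, 3.27 kb from its transcription start. The glial peak ended 489 bp from the same end. Of all protein-coding genes, 4.77% lay closer to a limb peak than Hoxa13 did, nearly all of them because a peak lay within the gene, as it did for 4.74% of genes.

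Hoxa11, whose protein patterns the forearm, spans chr6:52192107-52196213 on the minus strand, on the other side of the site. The limb peak lay 9.91 kb upstream of its transcription start and the glial peak 9.98 kb. Hoxa10, a gene of the upper limb group, spans chr6:52181196-52190853 and had the limb peak 15.3 kb upstream of its first transcription start. Its annotated starts further in lay from 15.3 kb to 22.8 kb from that peak, among them chr6:52184938 at 21.2 kb. Hoxa9 spans chr6:52173099-52181088 and lay 25034 bp from the limb peak and 25107 bp from the glial peak. It thus fell just outside the 25 kb that the study used to assign peaks to genes, and the other 3 HoxA genes fell inside it.

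The limb peak at the HoxA site had a −log10(p) of 310, the highest of the limb list, which 9 peaks share, so that it could not be ranked among them. It was 1480 bp wide, rank 13 by width of 2880, where the median limb peak was 408 bp. The glial peak had a −log10(p) of 59.6, rank 585 of 2919, and was 1008 bp wide, rank 47 by width in its list. Both peaks had a p-value smaller than 5.9e-57, a −log10(p) of 56.2, which the study set as its threshold for limb peaks. The study states no threshold for glial peaks, and the same value was applied to them here. The glial peak lay wholly inside the limb peak and covered 68.1% of it. It began 73 bp after the limb peak on the Hoxa11 side and ended 399 bp before it on the Hoxa13 side.

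The 2 peaks could be set against the probes themselves. The 25 probes, 13 odd and 12 even, matched the plus strand of chr6:52206273-52207367, and all 25 sites lay in the limb peak, which reached 150 bp beyond them towards Hoxa11 and 235 bp beyond them towards Hoxa13. The glial peak held 18 of the sites, 9 odd and 9 even. The 7 sites it did not hold were probes 1 to 7, 4 odd and 3 even, which are the ones nearest to Hoxa13. Probe 7, the nearest of these to the glial peak, begins at 52207208, and probe 8, the last one inside it, ends at 52207199. Because the probes carry the sequence of this DNA, recovery of the site through the RNA and recovery by the probes directly cannot be told apart in either list.

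Other assays of the study were placed at the same site from their primer and probe sequences alone, and their measured values were not analysed here. The 29 listed oligonucleotides for RNA FISH, which makes single RNA molecules visible in cells, held 27 distinct sequences. Of these 25 matched the site exactly, all 25 inside the limb peak and 18 inside the glial peak, and 22 were also ChIRP probes. Primer pairs for H3K27ac, a histone mark of active chromatin, gave 14 amplicons in this region. Amplicons 2 to 6 lay inside the limb peak and amplicons 2 to 5 inside the glial peak, and the other 9 lay outside both. Amplicons 7 to 10 fell in an exon of Hoxa13, amplicons 11 to 13 in its intron, amplicon 14 upstream of the gene and 4.11 kb from the limb peak, and amplicon 1 was 1.63 kb from the limb peak on the side of Hoxa11.

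**Figure D2:**
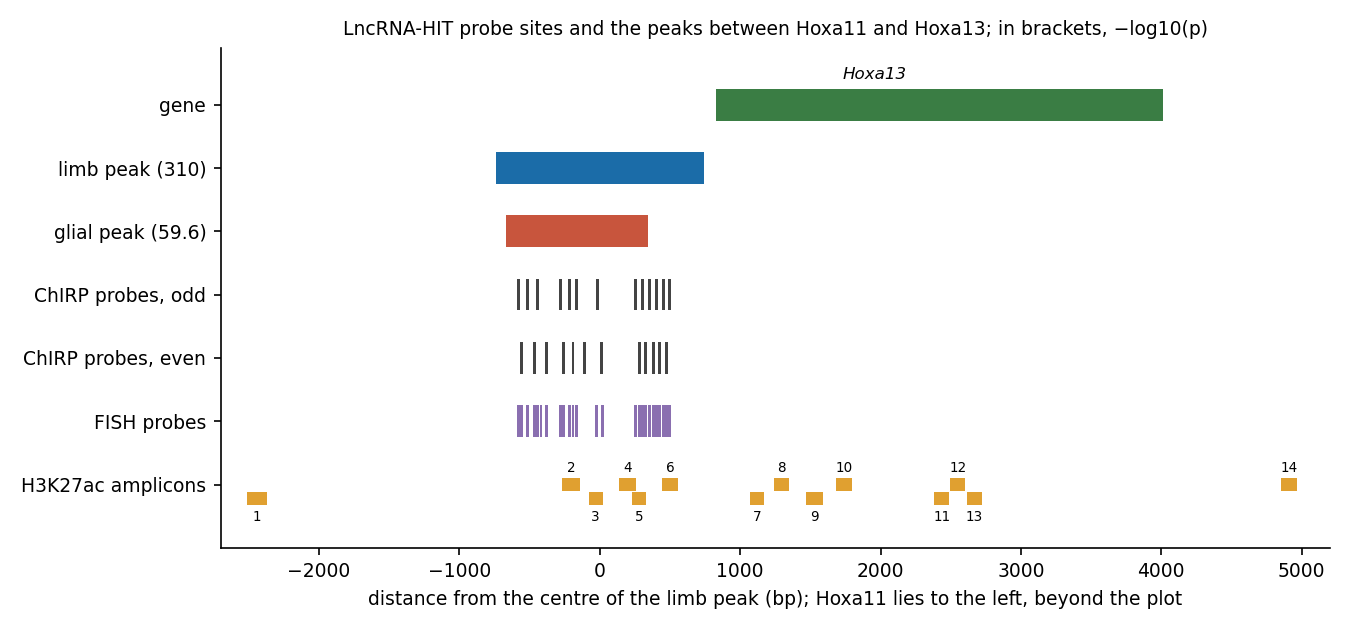
The HoxA site at base resolution. The x axis gives the distance in bp from the centre of the limb peak; bars show Hoxa13, both peaks with their −log10(p), the sites of the odd and even ChIRP probes, the FISH probes and the numbered H3K27ac amplicons. The limb peak covers all 25 ChIRP probe sites, the glial peak 18 of them, and the 7 sites between the end of the glial peak and Hoxa13 belong to the limb peak only.

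The sequence under the HoxA site differed in composition from the genes around it. The limb peak was 36.4% G and C with 18 CpG dinucleotides, and the glial peak was 35.1%, against 50.3% over the stretch from Hoxa9 to Hoxa13 and a median of 44.1% over all limb peaks. Of the 24-base words of the limb peak, 1.92% occurred more than once in the genome. In the 73 bp that the limb peak alone covered on the Hoxa11 side, 3 of 50 words were repeated, and in the 399 bp on the Hoxa13 side, 11 of 376 words were. All 11 lay within chr6:52207372-52207406, the run of c and t that follows the last capitals of the HoxA stretch above, and no probe site overlaps them. Of the words wholly within the part shared by both peaks 0.102% were repeated. Words that cross the border between these parts are in none of the counts per part, only in that of the whole limb peak.

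Annotated noncoding RNAs flank the site without reaching it. Hoxa11as, an antisense RNA that overlaps Hoxa11, ended 6.32 kb from the limb peak. Gm15053, which lies at the position of Hottip, began 5.17 kb away beyond Hoxa13. Mir196b, a microRNA gene inside the annotated span of Hoxa9, lay 25.96 kb away.

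The posterior HoxD genes all lie on the plus strand and had no limb peak within 100 kb. The glial peak between Hoxd12 and Hoxd11 was 382 bp wide with a −log10(p) of 26.5, rank 1689 of 2919. It was below the median of its list and short of the threshold that the study set for limb peaks. No limb peak overlapped this glial peak. At that threshold the limb count remained the 4 HoxA genes, where the background is 7.52% of protein-coding genes. With the same value applied to the glial list, for which the study states none, the glial count fell from 9 of 9 genes to the 4 HoxA genes. The glial background is then 5.46%. When every limb peak that overlaps a glial peak by at least 1 bp was left out, which is not the filter of the study, where peaks were inspected by eye, none of the 9 genes had a limb peak within 100 kb, against 23.5% of all protein-coding genes.

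Hoxd11, the forearm paralog of Hoxa11, lay nearest to that glial peak. It spans chr2:74517449-74525798, and the peak ended 395 bp upstream of its transcription start. Annotated starts further in lay 3.002 kb and 3.435 kb from the peak. Hoxd12, a gene of the wrist and digits that has no counterpart in the HoxA cluster, spans chr2:74512986-74515763 and ended 908 bp before the peak. Hoxd13, the digit gene whose mutation in people causes synpolydactyly, spans chr2:74506367-74509656 and lay 7.02 kb from the peak. Hoxd10 spans chr2:74529147-74533163, at 12.1 kb, and Hoxd9 spans chr2:74535737-74538265, at 18.7 kb. All 5 lay within 25 kb of the peak, as did 8.76% of all protein-coding genes of any glial peak.

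The nearest limb peak to the HoxD genes had a −log10(p) of 66.0, rank 483, which passes the study threshold. It lay 338 kb from Hoxd9, 344 kb from Hoxd10, 351 kb from Hoxd11, 361 kb from Hoxd12 and 367 kb from Hoxd13, and 160 kb beyond Mtx2, the gene next to the cluster on the side of Hoxd1. The median protein-coding gene lay 291 kb from its nearest limb peak, so the 5 HoxD genes were somewhat further from one than the median gene. A weak glial peak, with a −log10(p) of 9.06, lay 394 bp from this limb peak without touching it. A glial peak within 1 kb that did not overlap was found for 24 of the 2880 limb peaks (0.833%), and 111 (3.85%) overlapped one.

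**Figure D3:**
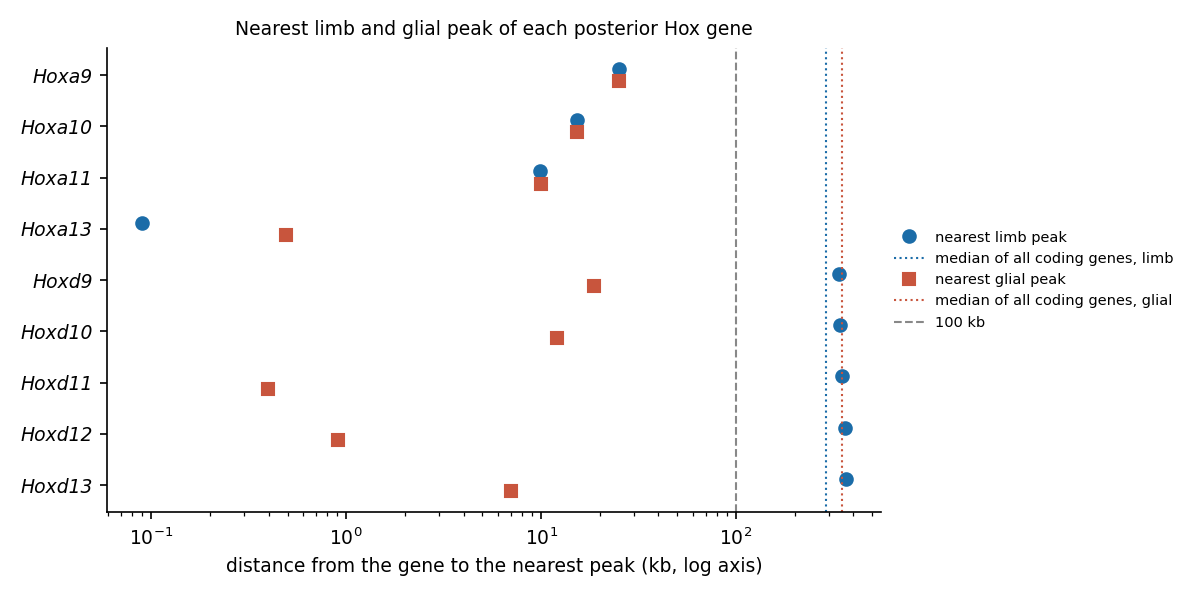
Distance from each of the 9 genes to its nearest limb peak (circles) and nearest glial peak (squares), in kb on a log axis. Dotted lines are the medians over all protein-coding genes (291 kb limb, 349 kb glial) and the dashed line is 100 kb. For the HoxA genes the circle and square nearly coincide except at Hoxa13 (90 bp and 489 bp), and for the HoxD genes the squares lie between 395 bp and 18.7 kb and the circles between 338 kb and 367 kb.

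The intervals between group 11 and group 13 can be compared directly, since the HoxA site lies in the one and the HoxD glial peak in the other. In HoxA this interval, from the transcription start of Hoxa11 to the downstream end of Hoxa13, is 11.5 kb and held 1 limb and 1 glial peak. In HoxD the interval from Hoxd13 to Hoxd11 is 7.79 kb, contains Hoxd12, and held no limb peak and 1 glial peak. The gap between Hoxd12 and Hoxd11 in which that peak lies is 1.69 kb. Widened by 100 kb on each side, the posterior HoxA genes cover 238 kb and the posterior HoxD genes 232 kb. Of 628 stretches of the HoxA length laid end to end along chromosome 6, 20.4% held a limb peak and 21.8% a glial peak. Of 783 stretches of the HoxD length along chromosome 2, 23.1% held a limb peak and 17.1% a glial peak. A stretch with no limb peak, as at HoxD, was thus the more common state on that chromosome.

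The share of genes with a peak rises with the distance allowed. Within 25 kb the limb list had 3 of the 9 genes (Hoxa10, Hoxa11 and Hoxa13), against 10% of all protein-coding genes, and the glial list had 8 of 9, all except Hoxa9, against 8.76%. Within 50 kb and within 250 kb the limb list had the same 4 HoxA genes, where the background is 15.1% and 45.4%. The glial list had all 9 genes at both limits, where the background is 12.9% and 40%. Within 500 kb all 9 genes had a limb peak, the HoxD genes through the peak beyond Mtx2, and at that distance 67.5% of all protein-coding genes had one and 61.5% had a glial peak.

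**Figure D4:**
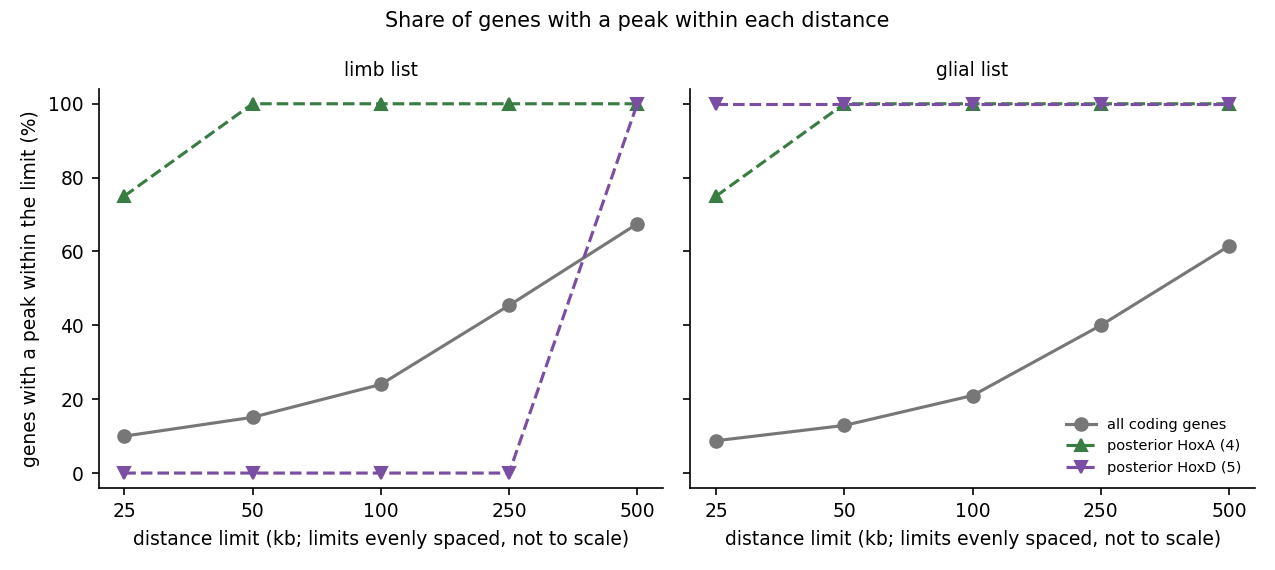
Share of genes, in percent, with a peak within 25, 50, 100, 250 or 500 kb in the limb list (left) and the glial list (right), for all protein-coding genes (grey circles), the 4 posterior HoxA genes (green triangles) and the 5 posterior HoxD genes (purple triangles). The limits are evenly spaced and not to scale. The HoxD genes have no limb peak up to 250 kb and all have one at 500 kb, where the share of all genes is 67.5%.

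The surroundings were compared over 1 Mb on each side of the whole clusters. Around HoxA the limb list held no peak other than the one at the LncRNA-HIT locus. The glial list held 4 others there. They lay nearest to Gm9953 (−log10(p) 38.5), Snx10 (9.64) and Skap2 (39.6) on the side of Hoxa9, and within Jazf1 (72.4) on the side of Hoxa13. Around HoxD the limb list held 2 peaks, both on the side of Hoxd1 beyond Mtx2, at 274 kb (66.0) and 439 kb (37.7) from the cluster. The glial list held 3 besides the peak between Hoxd12 and Hoxd11. One was the weak neighbour of the stronger limb peak. The others lay on the side of Hoxd13, 416 kb (37.3) and 560 kb (57.2) from the cluster, the further of them nearest to Atp5g3. On the side of Hoxd13, where the digit enhancers of this cluster are known to lie, the limb list held no peak over the 1 Mb. The limb list had on average 1 peak per 826 kb of chromosome 2 and per 952 kb of chromosome 6. For the glial list these averages were 1095 kb and 854 kb. Nothing is therefore read from the absence of a peak over 1 Mb.

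**Figure D5:**
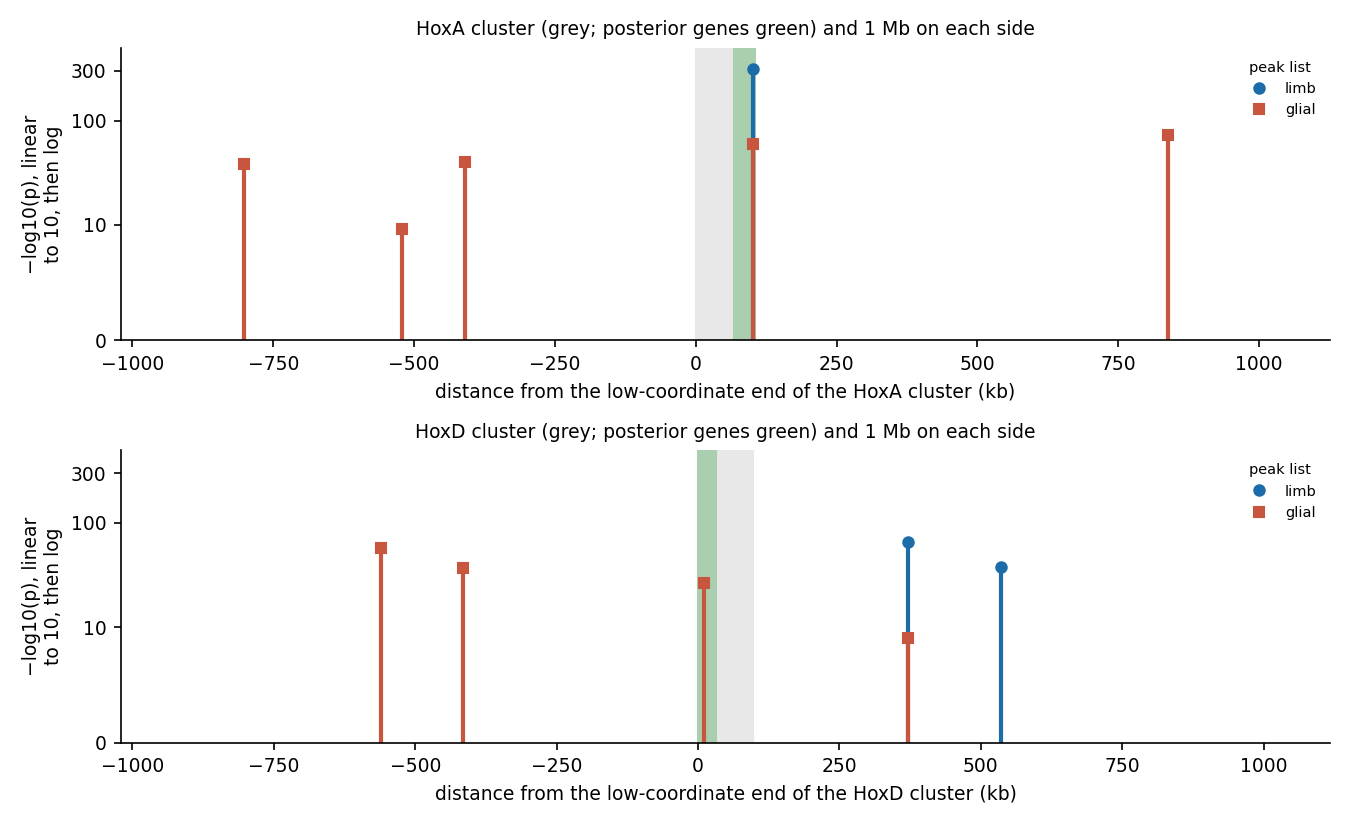
Peaks within 1 Mb of the HoxA cluster (top) and the HoxD cluster (bottom). The x axis gives the distance in kb from the low-coordinate end of the cluster and the y axis the −log10(p), on a scale that is linear to 10 and logarithmic above; circles are limb peaks, squares glial peaks, and shading marks the cluster (grey) and its posterior genes (green). HoxA has 1 limb peak (310) directly above a glial peak (59.6), and HoxD has 2 limb peaks (66.0 and 37.7), both beyond the end of the cluster away from the posterior genes.

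Likeness to the probes was measured at both clusters by sliding each probe, on both strands and without gaps, along the widened stretches and counting sites that share at least 15 of the 20 bases. Outside the probe sites themselves, the HoxA stretch held 74 such sites, where the 610 windows of that length on chromosome 6 had a median of 64 and a range from 23 to 101. The HoxD stretch held 57, where the 763 windows of that length on chromosome 2 had a median of 64 and a range from 39 to 89. With at least 16 bases the counts were 7 at HoxA and 4 at HoxD, with medians of 6 on both chromosomes, and neither stretch held a site sharing 17. The best site of a probe in either stretch shared 14 to 16 bases, with a median of 15 in both. A match describes letters only and is not evidence that a probe bound there.

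The glial HoxD peak had no site better than the 14 bases marked above, a likeness that 58.6% of glial peaks reached. The limb peak beyond Mtx2, with its site of 16 bases, was among 111 of 2879 limb peaks outside the probe span (3.86%) that reached this, and 48 of 2918 glial peaks (1.64%) did. None of the 24-base words of the HoxD glial peak or of the limb peak beyond Mtx2 was repeated elsewhere in the genome. They were 42.9% and 39.3% G and C, where the stretch from Hoxd13 to Hoxd9 was 50.9%.

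Genes that share these clusters took the same peaks. Of 12 other genes of the clusters, counting Evx1 and Evx2, the homeobox genes next to the posterior ends, 7 had a limb peak within 100 kb: Hoxa2 to Hoxa7 and Evx1, from 34.3 kb at Hoxa7 to 90.7 kb at Hoxa2, each through the peak at the LncRNA-HIT locus. All 12 had a glial peak within the limit, through the HoxA and HoxD sites. Over all protein-coding genes the shares are 24% and 21%, and since these neighbours share 1 limb peak and 2 glial peaks, nothing is read from the difference. The HoxA limb peak thus counted for 14 coding gene entries of the annotation, where the median limb peak had 2 and the 95th percentile was 8. The glial HoxD peak counted for 12, where the median glial peak had 1 and the 95th percentile was 7.1. A single peak in either cluster was thus counted for many genes.

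The paralogs on other chromosomes had no peak so close. None of the 7 posterior HoxB and HoxC genes (Hoxb9, Hoxb13, Hoxc9, Hoxc10, Hoxc11, Hoxc12 and Hoxc13) and none of the 12 other HoxB and HoxC genes had a limb or a glial peak within 100 kb, where the shares over all protein-coding genes are 24% and 21%. These genes amount to 2 loci, and stretches of the same length without a peak were the common state there too. A limb peak was held by 39.7% of such stretches on chromosome 11, for HoxB, and by 26.6% on chromosome 15, for HoxC, and a glial peak by 26.8% and 32.1%. The nearest limb peak lay 212 kb from Hoxb13 with a −log10(p) of 75.5, and the nearest to Hoxc13 lay 542 kb away with 8.83. Of the 4 Hox clusters, only HoxA, which holds the probe sites, had a limb peak within it, and only HoxA and HoxD had a glial peak within them.

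The proteins that work with the posterior Hox factors were examined from a list of 6 TALE homeodomain genes, whose products bind DNA together with Hox proteins. Of these 2 had a limb peak within 100 kb and 3 a glial peak, too few genes to set apart from the 24% and 21% of all protein-coding genes. Pbx4 held one inside the gene with a −log10(p) of 14.7, and Pbx2 had one of 19.9 at 1.88 kb. The glial peaks lay near or in Meis1 (23.8, at 7.56 kb), Meis2 (48.3, at 83.9 kb) and Pbx3 (37.9, inside the gene), and no gene of the list had both.

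Of 24 limb patterning genes that act before or after the posterior Hox proteins, 3 had a limb peak within 100 kb and 7 had a glial peak, where the shares over all protein-coding genes are 24% and 21%. The limb peaks lay near Tbx5 (63.0, at 47.4 kb), a forelimb determinant, Tbx4 (17.3, at 34.0 kb), its hindlimb counterpart, and Fgf8 (60.7, at 86.4 kb), a growth factor of the limb ridge. The peak near Fgf8 overlapped a glial peak of 78.9. Tbx4 had a glial peak of 13.9 at 2.22 kb, nearer than its limb peak, and Tbx5 had no glial peak within the limit. Within 25 kb, 0 of the 24 genes had a limb peak, where the background is 10%. A glial peak lay that close to 5 of them, Tbx4, Gli3, Bmp2, Epha7 and Alx4, where the background is 8.76%. Shh, the signal of the posterior limb margin, had its nearest limb peak at 722 kb, and Gli3, whose product opposes Shh, held a glial peak of 53.3 and no limb peak within 1 Mb.

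Of 11 chromatin regulators and partners of the RNA, 3 had a limb peak and 5 a glial peak within 100 kb, where the shares over all protein-coding genes are 24% and 21%. The limb count is near that share. Wdr5, which acts with the neighbouring RNA Hottip, had a limb peak of 25.7 at 12.9 kb and a glial peak of 49.5 at 12.3 kb. Mll1, a histone H3 lysine methyltransferase that maintains Hox expression, had a limb peak of 12.2 at 12.3 kb and a glial peak of 69.0 at 63.6 kb. Snd1, which encodes the p100 partner of LncRNA-HIT, had a limb peak of 9.05 at 96.1 kb and held a glial peak of 61.6. Crebbp, which encodes the acetyltransferase CBP, had a glial peak of 49.7 at 32.4 kb and no limb peak within the limit. Of the 2 genes that flank HoxA at a distance, Creb5 had a limb peak of 51.5 at 49.0 kb, short of the study threshold and beyond the 25 kb of the study, and Skap2 had none within 100 kb in either list.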

How the data were processed

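Limb and glial libraries were each hybridized with an odd or an even probe set, with an input library per tissue. Per the authors, reads with a unique position in mm9 were kept (bowtie 0.12.9), normalized to total reads, reduced to the lower of both probe sets at each position and turned into peaks against input by MACS, whose version is not given in the sources used here. The deposited score, whose scale the peak lists do not state, was read as the negative log10 of the p-value multiplied by 10, the form in which the authors give peak p-values, and was divided by 10 to give −log10(p). On this reading 774 limb peaks passed the study threshold. The score was used to describe and rank peaks within a list, and the threshold for limb peaks was also applied to the glial list.

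Peaks were placed on the gene bodies of GENCODE M1. A distance is the number of bases between gene and peak, and 0 where they overlap. The 9 genes were those of the rule. The other gene lists were set by family, position or function, and their members were named mainly where they had a peak within 100 kb. Genes and lists were chosen with earlier results of these data known. Overlap meant at least 1 bp. Probes of 20 bases were compared with the genome without gaps, and repeated words were 24 bases long. With 1 list per tissue no test was made. Other distances, p-values, gene sets and match lengths were tried. Signal tracks were not analysed here, and the values of 2 genes of the lists are not reported here. Distances between genes and peaks that do not overlap, and probe matches, were tested on simulated data. The tools were samtools 1.23.1, pysam 0.24.0, numba 0.67.0, numpy 2.4.6, pandas 2.3.3, matplotlib 3.10.9 and Python 3.11.15.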

Additional observations from a re-analysis of the deposited data

How the results depend on the processing

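The count of posterior genes with a limb peak within 100 kb was 4. It was 9 with a limit of 500 kb and 0 when limb peaks overlapping a glial peak were left out, since the only such peak is the one at the LncRNA-HIT locus. It stayed between 3 and 4 with limits of 25, 50 and 250 kb, with the peaks at the study threshold only, and with distances from the transcription start. The glial count was 9, and was 8 or 9 with most other settings. It was 4 when the study's threshold for limb peaks was applied to the glial list, because the −log10(p) of the HoxD peak is lower. The share of protein-coding genes with a limb peak, 24%, was 10% at 25 kb, 45.4% at 250 kb, 7.52% at the study threshold and 22% over all annotated genes. The sites like a probe, 74 at HoxA and 57 at HoxD, numbered 486 and 473 with 14 of 20 bases, 7 and 4 with 16, 0 and 0 with 17, and 10 and 5 with a run of 12 identical bases. The HoxA count, on a slightly longer stretch, was the higher one except with 17 bases, where the counts were equal.

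No paired analysis was possible because the files used here hold 1 peak list per tissue, in which the odd and even libraries are merged, and no values per library. Leaving out a library needs reads and was not run. Each value rests on 1 list per tissue, sequencing depth is unknown, and its part in which peaks passed was not tested.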
